A study of Papio hamadryas with 4 samples.

Results

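The genes described here are 35 genes of fatty acid oxidation and of the peroxisome, followed through kidney biopsies of baboons (Papio hamadryas) on high and low sodium. They were taken by gene symbol, in the platform annotation, from a fixed list of 18 mitochondrial members, 15 peroxisomal members and 2 regulators. Of these, 33 had at least 1 probe on the Illumina human bead array, among 18774 genes with a probe, and they carried 43 probes in all. HADHB and SCP2 had none listed in the annotation used. Signal above the array median, the detection rule used throughout, was found on all 4 arrays for 28 members, made up of 14 mitochondrial, 12 peroxisomal and both regulators. The 4 groups are HSLC animals on high sodium, HSLC animals on low sodium, NSLC animals on high sodium and NSLC animals on low sodium, with 6 weeks on each diet. HSLC and NSLC are the high and normal forms of a phenotype whose abbreviation the labels do not spell out. Each group is 1 array, and the sources used here do not give the number, sex or age of the animals behind it. Both diets were fed to both phenotypes, no untreated diet group is among the arrays, and no transgene or drug is named.

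Fatty acids are burned in both the mitochondria and the peroxisomes of the tubule cell. Mitochondria take up long-chain acyl groups through the carnitine shuttle and shorten them by repeated rounds of dehydrogenation, hydration, another dehydrogenation and thiolytic cleavage, passing electrons on to the respiratory chain. Peroxisomes shorten very long, branched and bile acid side chains with oxidases that give off hydrogen peroxide, which catalase breaks down. The proximal tubule is rich in both organelles and draws most of its energy from fatty acids, and the nuclear receptor PPARA switches on many genes of both routes.

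Levels are given as log2 intensity after background correction and quantile normalization, and a ratio is the difference of 2 such levels. A level can be set against another level of the same gene only, since probes differ in brightness. With 1 array per group no single ratio can be tested, so ratios are described by their sign and by a size rule of 1.5-fold. That rule was set below 2-fold because changes of these genes were known from earlier results to be mostly under 2-fold. Counts past it are thus a description and not a test. The spread to keep in mind is that of a single probe, taken from 515 genes with 2 bright probes. It is the SD of the difference between their diet ratios, divided by the square root of 2, and was 0.17 in HSLC and 0.21 in NSLC. The difference between 2 probes of a gene is thus more widely spread than these values. The diet and phenotype effects were tested over all 4 arrays with limma, taking diet and phenotype as additive factors. Its error comes from how far the 2 diet ratios of a gene differ, pooled over 11908 genes, and holds no spread between animals. An exact permutation test of 2 arrays against 2 cannot give a two-sided p below 0.333, so the verbs rose and fell are kept for genes past an adjusted p of 0.05 in limma.

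Median intensity was 68.2 on the high sodium array and 72.1 on the low sodium array of HSLC, and 79.5 on the high sodium array and 77.7 on the low sodium array of NSLC. Their 99th percentiles were 2490, 2360, 3298 and 2320 in the same order, so the NSLC high sodium array was the brightest at its upper end. The kidney label was borne out by 22 of 24 proximal tubule markers on the array, detected in every group. Skeletal muscle markers stood apart on 1 array: the HSLC low sodium array detected 23 of 25, with a summed level of 25854 in intensity units. The HSLC high sodium array detected 13 with a sum of 2792, the NSLC high sodium array 14 with a sum of 2653, and the NSLC low sodium array 17 with a sum of 4048. Since mitochondrial oxidation enzymes are also made in muscle, the HSLC diet values are given below also with that array replaced. They are given with the muscle probes left out too, which changes only the normalization. The members' own probes keep any RNA from muscle, so that setting cannot show its part in their ratios.

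**Figure D1:**
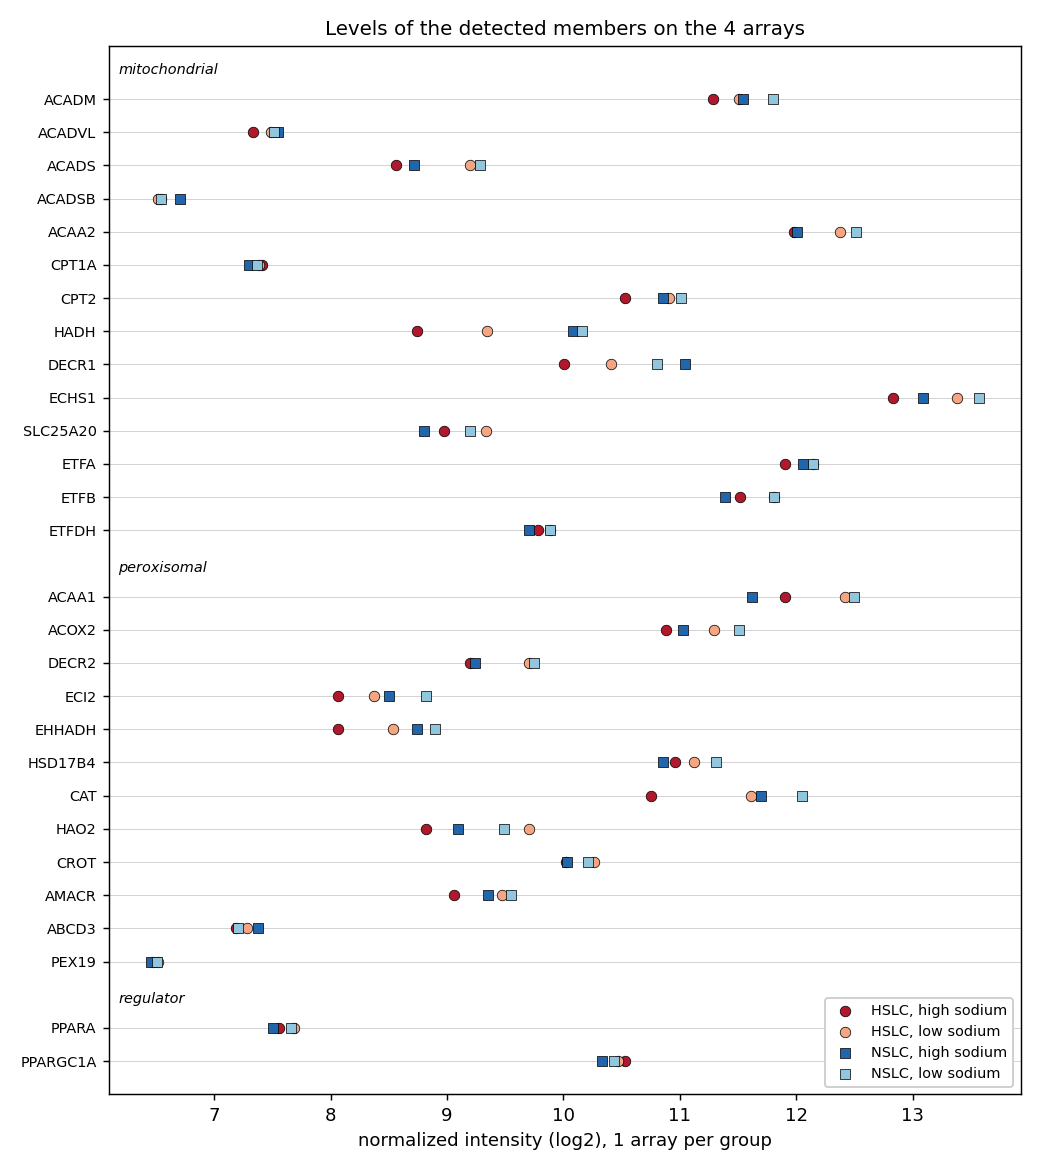
Log2 intensity of the detected members (rows), one point for each of the 4 arrays (HSLC high sodium, HSLC low sodium, NSLC high sodium, NSLC low sodium), mitochondrial and peroxisomal members and regulators in separate blocks. For ACAA1 and ECHS1 both high sodium points lie left of both low sodium points, and for HADH and DECR1 both HSLC points lie left of both NSLC points.

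Fatty acid oxidation and peroxisome genes were mostly lower on high than on low sodium in HSLC kidneys. The diet ratio was below 0 for 25 of the 28 detected members, where 47.3% of all genes detected on both arrays lay below 0. Its median was -0.33 over the members and 0.01 over all genes. All 12 detected peroxisomal members had a ratio below 0, with a median of -0.41, and so did 12 of 14 mitochondrial members, with a median of -0.33. The 3 members with a ratio just above 0 (52.6% of all genes) were ACADSB at 0.03, CPT1A at 0.02 and PPARGC1A at 0.06. In these biopsies fewer cells of a type and less RNA per cell cannot be told apart.

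The members past 1.5-fold lower on high sodium in HSLC numbered 4, where 1.33% of all genes were that much lower. HAO2, the peroxisomal 2-hydroxyacid oxidase, had a ratio of -0.89, or 1.85-fold lower, by the brighter of its 2 probes. Its dimmer probe, detected on 3 of the 4 arrays, had diet ratios of -0.06 in HSLC and -0.10 in NSLC. CAT, the catalase that removes peroxisomal hydrogen peroxide, had a ratio of -0.86, or 1.82-fold lower. The other two were the mitochondrial short-chain acyl-CoA dehydrogenase ACADS at -0.63 and the 3-hydroxyacyl-CoA dehydrogenase HADH at -0.60. No member was 1.5-fold higher, where 2.25% of all genes were. With the muscle probes left out before normalization the members' median was -0.34, a setting that leaves any muscle RNA in the members' own probes. With NSLC on low sodium in place of the muscle-rich array as the baseline, 26 of 28 members were below 0 (46.8% of all genes), the median was -0.48 and 10 members were 1.5-fold lower (2.71% of all genes). That comparison changes phenotype as well as diet, so it does not give the diet values alone.

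In NSLC kidneys the members were lower on high than on low sodium after quantile normalization, but not without normalization or with median scaling. With quantile normalization 24 of 28 had a ratio below 0, where 43.5% of all genes did, and the median was -0.19 against 0.04 over all genes. The peroxisomal median was -0.34, with 11 of 12 below 0, and the mitochondrial median -0.17, with 11 of 14 below 0. ACAA1, the peroxisomal thiolase that completes each round of chain shortening, was the 1 member past 1.5-fold lower, at -0.88 or 1.85-fold, where 1.76% of all genes were that much lower. No member was 1.5-fold higher, where 2.3% of all genes were. Members above 0 (56.4% of all genes) were DECR1 at 0.24, ABCD3 at 0.17, ACADSB at 0.16 and ACADVL at 0.03.

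The sign of the NSLC ratios thus depended on the scaling. Without normalization the median of all genes moved to 0.28, and that of the genes above the median signal, called the brighter genes here, to 0.47, while the members' median was 0.18 with 5 of 28 below 0 (19.6% of all genes). Median scaling left it at 0.13, with 6 below 0 (24.2% of all genes). Taken relative to the unnormalized median of all genes the members stood at -0.10, and relative to the brighter genes at -0.28, both computed from unrounded values. On the series matrix as deposited the members' median was -0.08, close to the -0.09 of all genes, with 17 of 28 below 0 (57.5% of all genes). In HSLC, without normalization, the median of all genes was 0.02 and that of the brighter genes 0.10. There 24 members were below 0 without normalization, with a median of -0.22 (43.5% of all genes were below 0), and 24 with median scaling, with a median of -0.21 (38.5%).

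**Figure D2:**
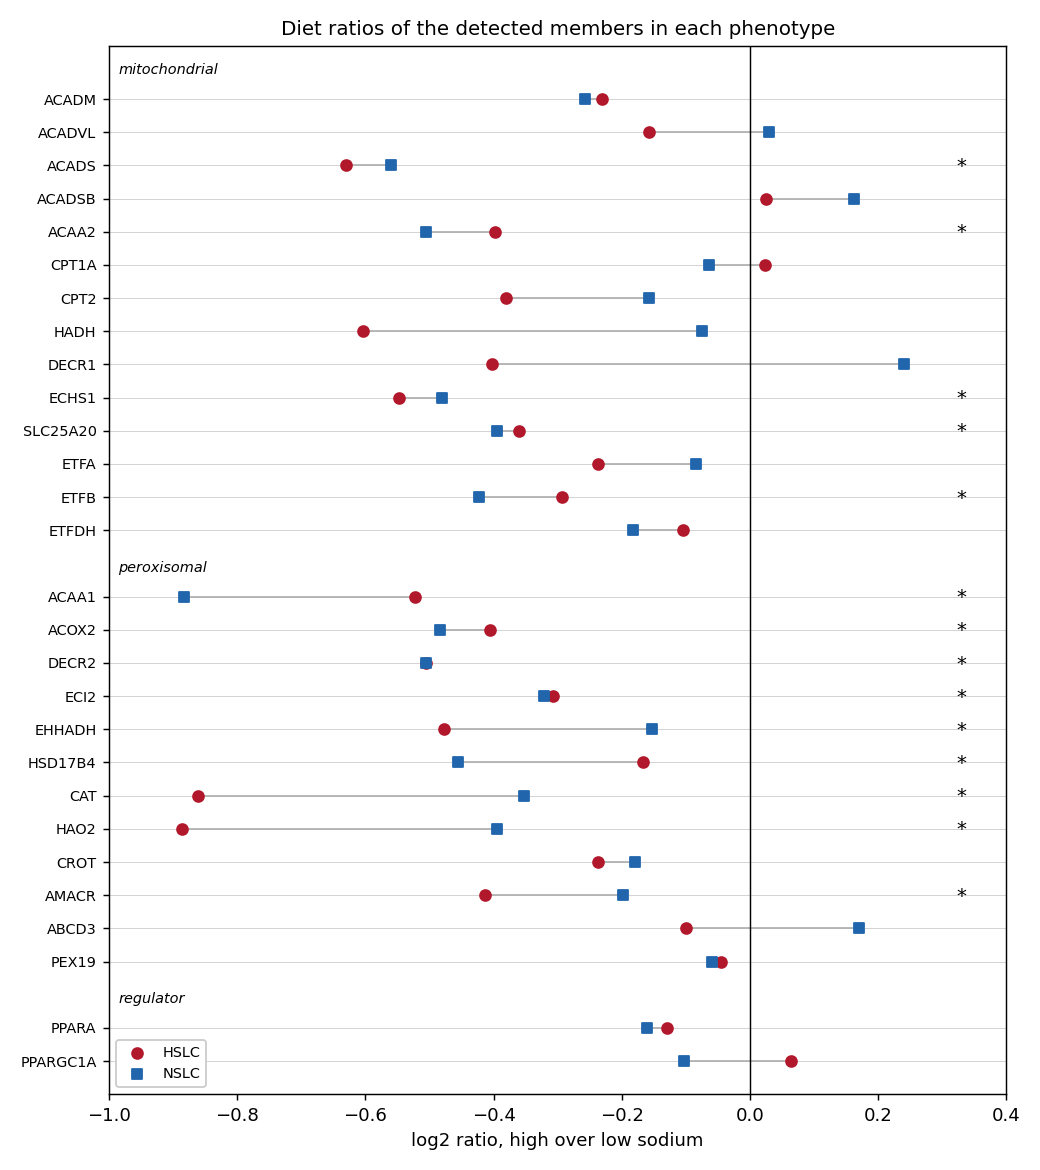
Log2 ratio of high over low sodium for each detected member (rows), with 1 point for HSLC and 1 for NSLC joined by a grey line, after quantile normalization. The vertical line marks 0, and an asterisk marks members past an adjusted p of 0.05 in the additive limma fit of diet, 14 of 28. Peroxisomal members reach -0.89 in HSLC and -0.88 in NSLC.

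**Figure D3:**
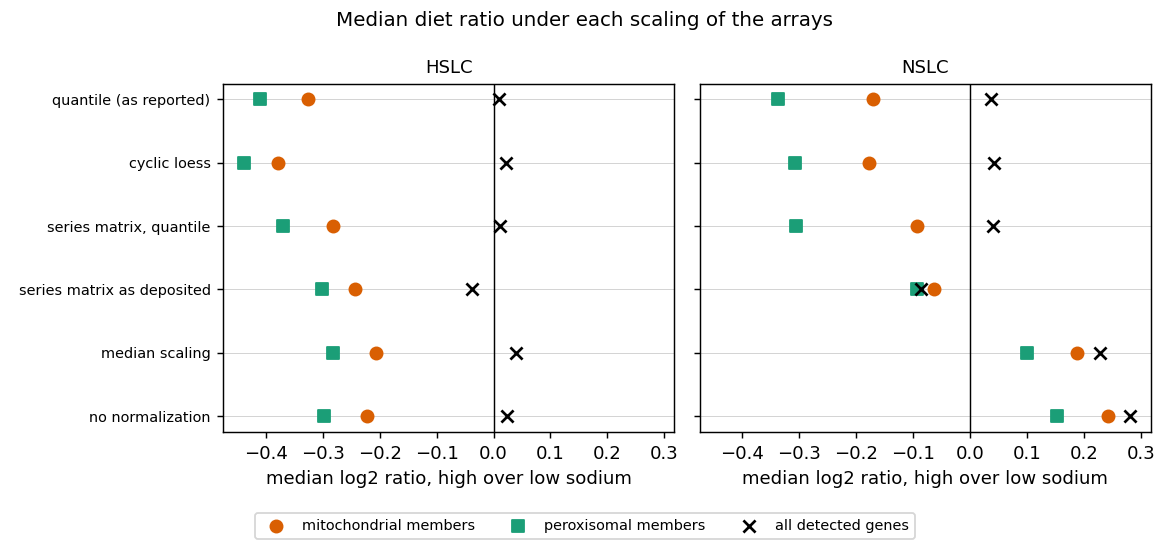
Median log2 ratio of high over low sodium of the mitochondrial members, the peroxisomal members and all detected genes under 6 ways of scaling the arrays, for HSLC (left) and NSLC (right). The members' medians lie below 0 in HSLC under each scaling. In NSLC they lie above 0 without normalization and with median scaling, and close to that of all genes on the series matrix as deposited.

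Taken member by member, 22 of 28 had both diet ratios below 0, where 32.1% of 11908 genes did. They were 10 mitochondrial members, 11 peroxisomal members and PPARA. The count was 22 with cyclic loess (29.8% of all genes), 6 with median scaling (18.8%) and 5 without normalization (17.1%). ACADSB was the 1 member with both ratios above 0, where 41% of all genes had both. The 5 with ratios of opposite sign were ACADVL, CPT1A, DECR1, ABCD3 and PPARGC1A, and 26.7% of all genes had opposite signs.

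In the additive fit over the 4 arrays, limma with Benjamini-Hochberg adjustment found 14 of 28 members lower on high sodium and 0 higher, where 7.11% of all genes were lower and 8.79% higher. At an unadjusted p of 0.05, 18 members were lower and 0 higher, where 13.3% of all genes were lower and 16.6% higher. Of the peroxisomal members 9 of 12 fell, of the mitochondrial members 5 of 14, and of the regulators none. These calls depended on the scaling too. Without normalization 0 of 28 passed (0.311% of all genes were lower), with median scaling 1 passed (0.613%), and on the deposited series matrix used as it stands 1 passed (3.44%), ACAA1 in both cases. With the muscle probes left out 15 passed, where 955 of 11896 genes were lower. The range of adjusted p over 12 alternatives ran for ACAA1 between 1.15e-10 and 0.0889, and it passed in 11 of them. ACADS, ECHS1, ACAA2, ETFB, ACOX2, DECR2 and HAO2 passed in 9 of the 12, CAT in 8, ECI2 and SLC25A20 in 7, EHHADH and HSD17B4 in 5 and AMACR in 4.

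Entry into the mitochondrion runs through the carnitine shuttle, and of its 3 members 1 fell. SLC25A20, the carnitine-acylcarnitine carrier of the inner membrane, had levels of 8.97 on high and 9.33 on low sodium in HSLC, and 8.80 on high and 9.20 on low sodium in NSLC. Both high sodium levels lay below both low sodium levels, and the diet effect was -0.38 ± 0.09 (SE; adjusted p = 0.0103 in limma). A dimmer probe for SLC25A20, also detected on all arrays, had diet ratios of -0.05 in HSLC and 0.08 in NSLC, so the call belongs to 1 probe. CPT2, which rebuilds acyl-CoA inside the mitochondrion, stood at 10.53 on high and 10.91 on low sodium in HSLC, and at 10.86 on high and 11.01 on low sodium in NSLC, without passing (-0.27 ± 0.09, adjusted p = 0.0659 in limma). CPT1A, the rate-limiting outer membrane transferase, had ratios of 0.02 in HSLC and -0.06 in NSLC, and its other detected probe had 0.14 and 0.23 in that order.

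Among the acyl-CoA dehydrogenases, which open each round with a double bond, the short-chain enzyme changed and the others did not pass. ACADS had levels of 8.56 on high and 9.19 on low sodium in HSLC, and 8.72 on high and 9.28 on low sodium in NSLC. High sodium was the lower diet in both phenotypes by similar amounts, and the effect was -0.60 ± 0.09 (SE; adjusted p = 0.0005 in limma). The medium-chain ACADM had ratios of -0.23 in HSLC and -0.26 in NSLC (adjusted p = 0.0773 in limma). ACADVL, for very long chains, had -0.16 and 0.03 in that order, and ACADSB, for short branched chains, 0.03 and 0.16.

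The hydratase and the thiolase of the mitochondrial cycle both fell. ECHS1, the short-chain enoyl-CoA hydratase, had levels of 12.83 on high and 13.38 on low sodium in HSLC, and 13.09 on high and 13.57 on low sodium in NSLC. ACAA2, the 3-ketoacyl-CoA thiolase, had 11.98 on high and 12.38 on low sodium in HSLC, and 12.00 on high and 12.51 on low sodium in NSLC. In each gene the 2 high sodium arrays lay below the 2 low sodium arrays, with effects of -0.51 ± 0.09 for ECHS1 (adjusted p = 0.0014 in limma) and -0.45 ± 0.09 for ACAA2 (adjusted p = 0.0035). HADH, which carries out the dehydrogenation between those steps, had 8.74 on high and 9.35 on low sodium in HSLC, and 10.08 on high and 10.16 on low sodium in NSLC. It differed more by phenotype than by diet, and its diet effect of -0.34 ± 0.11 did not pass (adjusted p = 0.0573).

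Of the 3 electron transfer members, which hand electrons from the dehydrogenases to ubiquinone, 1 fell. ETFB, the beta subunit of the electron transfer flavoprotein, had levels of 11.52 on high and 11.81 on low sodium in HSLC, and 11.39 on high and 11.81 on low sodium in NSLC. The low sodium levels lay above both high sodium levels, with an effect of -0.36 ± 0.09 (adjusted p = 0.0151 in limma), and its other detected probe had ratios of -0.21 in HSLC and -0.39 in NSLC. ETFA, the alpha subunit, had -0.24 and -0.08 in that order. ETFDH, the ubiquinone oxidoreductase, had -0.10 in HSLC and -0.18 in NSLC, and neither gene passed.

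After quantile normalization the core enzymes of peroxisomal chain shortening fell at each step that was measured. Of these only ACAA1 also passed with median scaling and on the series matrix as deposited. HSD17B4 and EHHADH each passed in 5 of the 12 alternatives. ACOX2, the branched-chain and bile acid intermediate oxidase, had levels of 10.88 on high and 11.29 on low sodium in HSLC, and 11.03 on high and 11.51 on low sodium in NSLC, with an effect of -0.45 ± 0.09 (adjusted p = 0.0038 in limma). ACAA1 had 11.90 on high and 12.42 on low sodium in HSLC, and 11.62 on high and 12.50 on low sodium in NSLC. Its effect of -0.70 ± 0.10 was the largest of any member (adjusted p = 0.000377), with both high sodium levels below both low sodium levels. HSD17B4, the D-bifunctional hydratase and dehydrogenase, had 10.96 on high and 11.12 on low sodium in HSLC, and 10.85 on high and 11.31 on low sodium in NSLC (-0.31 ± 0.10, adjusted p = 0.0413), again with both high sodium levels lowest. EHHADH, the L-bifunctional enzyme, had 8.06 on high and 8.54 on low sodium in HSLC, and 8.74 on high and 8.89 on low sodium in NSLC. Its HSLC level on low sodium lay below both NSLC levels, so the diets overlapped across phenotypes, and its effect of -0.32 ± 0.10 (adjusted p = 0.0427) turned to 0.0072 without normalization.

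The auxiliary enzymes that prepare unsaturated and branched chains for peroxisomal oxidation also fell. DECR2, the peroxisomal 2,4-dienoyl-CoA reductase, had levels of 9.20 on high and 9.70 on low sodium in HSLC, and 9.24 on high and 9.74 on low sodium in NSLC. The 2 phenotypes gave nearly the same pair of levels, and the effect was -0.51 ± 0.09 (adjusted p = 0.0016 in limma). ECI2, an enoyl-CoA isomerase, had 8.06 on high and 8.37 on low sodium in HSLC, and 8.50 on high and 8.82 on low sodium in NSLC (-0.31 ± 0.09, adjusted p = 0.0265), so its levels were ordered by diet within a phenotype but overlapped between phenotypes. AMACR, the racemase that turns branched chains and bile acid intermediates into the form the oxidase accepts, had 9.06 on high and 9.48 on low sodium in HSLC, and 9.35 on high and 9.55 on low sodium in NSLC. The AMACR effect was -0.31 ± 0.09 (adjusted p = 0.0379) and turned to 0.0366 without normalization and 0.0181 with median scaling.

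CAT and HAO2, which remove and release hydrogen peroxide, both fell on high sodium, and the size of their ratios was larger in HSLC, a difference that was not tested. CAT had levels of 10.75 on high and 11.61 on low sodium in HSLC, and 11.69 on high and 12.05 on low sodium in NSLC, with an effect of -0.61 ± 0.11 (adjusted p = 0.0022 in limma). HAO2 had 8.82 on high and 9.70 on low sodium in HSLC, and 9.09 on high and 9.49 on low sodium in NSLC (-0.64 ± 0.11, adjusted p = 0.0014). These HAO2 values are those of its brighter probe, so the call belongs to 1 probe. For HAO2 both high sodium levels lay below both low sodium levels, whereas for CAT the HSLC level on low sodium lay below the NSLC level on high sodium.

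Import, export and assembly members of the peroxisome did not pass. ABCD3, a membrane transporter for fatty acyl-CoA, had ratios of -0.10 in HSLC and 0.17 in NSLC. CROT, which makes medium-chain acylcarnitines for export to mitochondria, had -0.24 and -0.18 in that order (adjusted p = 0.132 in limma). PEX19, the chaperone that brings membrane proteins to the peroxisome, had -0.05 and -0.06. Neither regulator passed. PPARA had levels of 7.55 on high and 7.68 on low sodium in HSLC, and 7.50 on high and 7.66 on low sodium in NSLC (-0.15 ± 0.09, adjusted p = 0.293). PPARGC1A, the coactivator of mitochondrial genes, had 10.53 on high and 10.47 on low sodium in HSLC, and 10.33 on high and 10.43 on low sodium in NSLC (-0.02 ± 0.09, adjusted p = 0.914).

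Set by phenotype, 5 members were lower in HSLC than in NSLC over both diets in limma and 0 were higher, where 2.87% of all genes were lower and 0.857% higher. At an unadjusted p of 0.05 the members numbered 8 lower and 0 higher, where 8.73% of all genes were lower and 6.37% higher. HADH was 1.76-fold lower in HSLC on low sodium and 2.53-fold lower on high sodium, with levels given above and an effect of -1.08 ± 0.11 (adjusted p = 0.000174 in limma). DECR1, the mitochondrial 2,4-dienoyl-CoA reductase for unsaturated chains, had 10.01 in HSLC and 11.05 in NSLC on high sodium, and 10.41 in HSLC and 10.81 in NSLC on low sodium (-0.72 ± 0.12, adjusted p = 0.0045). In all 5 genes both HSLC levels lay below both NSLC levels. CAT (-0.69 ± 0.11, adjusted p = 0.0031), EHHADH (-0.52 ± 0.10, adjusted p = 0.0091) and ECI2 (-0.45 ± 0.09, adjusted p = 0.011) were the other three. The count was 4 without normalization (182 of 11908 genes were lower) and 3 with cyclic loess (123 of 11908). It was 0 where undetected genes were kept in the fit, in which only 1 of 18774 genes was lower. In that limma fit HADH had its highest adjusted p, 0.0949.

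On low sodium the members as a whole lay close to equal between phenotypes. The median ratio of HSLC over NSLC was -0.06, with 17 below 0 and 9 above (49.1% of all genes were below 0 and 50.8% above), and HADH, at -0.81, was the 1 member past 1.5-fold (0.324% of all genes were that much lower and 0.542% that much higher). On high sodium the median was -0.15, with 19 below 0 and 9 above (43.9% of all genes were below 0 and 56.1% above). There 4 members were past 1.5-fold lower, HADH at -1.34, DECR1 at -1.04, CAT at -0.94 and EHHADH at -0.68, where 2.13% of all genes were, and 0 were 1.5-fold higher, where 0.463% of all genes were. The high sodium median was -0.44 without normalization, under which the median of all genes was -0.14 and that of the brighter genes -0.23. The low sodium values of HSLC come from the array with muscle markers, and the part of that in the phenotype ratios was not tested.

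**Figure D4:**
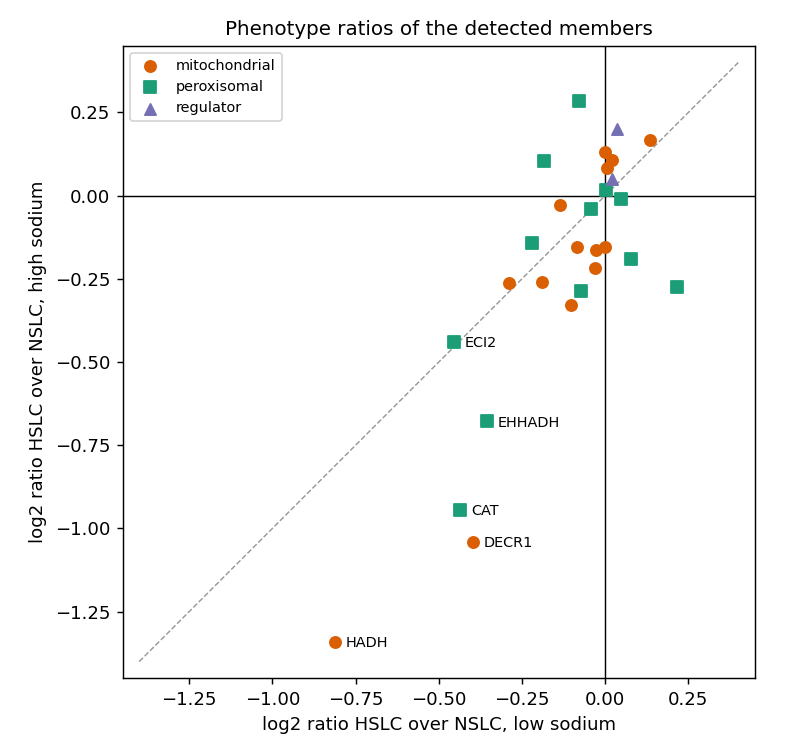
Log2 ratio of HSLC over NSLC on high sodium (vertical axis) against that on low sodium (horizontal axis), 1 point per detected member after quantile normalization, with solid lines at 0 and a dashed line where both are equal. Named are the 5 members past an adjusted p of 0.05 in the limma fit of phenotype, with HADH lowest on both axes at -1.34 and -0.81.

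How far the diet ratio differed between phenotypes cannot be tested with 1 array per group, and after quantile normalization the members were split evenly. The HSLC ratio was below the NSLC ratio for 14 members and above it for the other 14 (49.7% of all genes were below and 50.3% above), with a median difference of -0.03. DECR1, at -0.64, was the 1 member past 1.5-fold, where 1.22% of all genes were that far below 0. Its diet ratio was below 0 in HSLC and above 0 in NSLC under each of 6 scalings. HADH at -0.53, CAT at -0.51 and HAO2 at -0.49 followed on the same side, and ACAA1 at 0.36 and HSD17B4 at 0.29 lay furthest on the other. Other scalings gave an uneven split. Without normalization all 28 differences were below 0 (82.7% of all genes), with a median of -0.41 when that of all genes was -0.21 and that of the brighter genes -0.34. With median scaling all 28 were below 0 (73.5% of all genes). Relative to the unnormalized median of all genes 23 were below 0 (50% of all genes). On the series matrix as deposited 23 were below 0 (37.9% of all genes), with a median of -0.19 when that of all genes was 0.11.

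The 5 members with a probe that was not above the median of any array have no ratio here. They were HADHA, the alpha subunit of the mitochondrial trifunctional protein, ECI1, the mitochondrial enoyl-CoA isomerase, ACSM2A, a medium-chain acyl-CoA synthetase, PHYH, the peroxisomal phytanoyl-CoA hydroxylase, and PEX11A, which takes part in peroxisome division. Probes made for human transcripts can be dimmed by a difference in the baboon sequence, which was not tested. Of the 8 members with more than 1 probe, only CPT1A, ETFB and SLC25A20 had another probe detected on all 4 arrays.

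In the wider fatty acid and peroxisome lists some enzymes fell in the diet fit and the proteins that build peroxisomes did not pass. In that fit 7.11% of all genes were lower and 8.79% higher. Of 20 other mitochondrial fatty acid genes, 5 fell and 0 rose, among them ACSM3, a medium-chain acyl-CoA synthetase (-0.54, adjusted p = 0.001 in limma), IVD of leucine breakdown (-0.50), ACAD11, an acyl-CoA dehydrogenase (-0.39), and BDH1 of ketone body metabolism (-0.34). Of 17 other peroxisomal enzymes, 6 fell and 2 rose. DAO, the D-amino acid oxidase (-0.71, adjusted p = 0.000193), AGXT, which detoxifies glyoxylate (-0.67), the acyl-CoA thioesterase ACOT4 (-0.56) and HACL1 of alpha-oxidation (-0.39) were among those that fell. In limma 0 of 9 other peroxins passed at the adjusted threshold, and 1 passed an unadjusted p of 0.05. PEX5 had diet ratios of -0.10 in HSLC and -0.49 in NSLC (adjusted p = 0.0689 in limma). With the muscle probes left out and on the normalized series matrix 1 peroxin was called lower. The count was also 1 with detection above the 75th percentile and with a trended prior. The median diet ratios of the 9 peroxins were 0.05 in HSLC and 0.01 in NSLC, close to those of all genes.

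Fatty acid uptake and activation showed 1 gene up and 1 down of 11, near the shares of all genes in the diet fit (8.79% higher and 7.11% lower). CD36, the fatty acid translocase, rose (0.61, adjusted p = 0.0019 in limma), with levels of 6.95 on high and 6.58 on low sodium in HSLC, and 7.10 on high and 6.24 on low sodium in NSLC. That 6.24 lies close to the level of the undetected member ACSM2A on the same array, 6.12. The count of this list that rose was 0 on the series matrix, as deposited or normalized. It was also 0 without a detection filter and with detection above the 75th percentile. Without normalization it was 2 (1059 of 11908 genes rose), and with median scaling 3 (1763 of 11908). SLC22A5, the carnitine transporter, fell (-0.54, adjusted p = 0.000912), with 10.12 on high and 10.67 on low sodium in HSLC, and 9.91 on high and 10.46 on low sodium in NSLC. Of 17 other regulators and PPARA targets, 3 fell and 0 rose, namely KLF15 (-0.59), ESRRG (-0.31) and CYP4A11 (-0.31), the last a fatty acid omega-hydroxylase and PPARA target with an adjusted p of 0.0499. Of 14 tricarboxylic acid cycle genes, 3 fell and 0 rose, DLST (-0.49), OGDH (-0.34) and IDH3G (-0.30). Without normalization no gene of the mitochondrial, peroxisomal, uptake, regulator or tricarboxylic acid cycle lists was called lower (0.311% of all genes were). With median scaling (0.613% of all genes) and on the series matrix as deposited (3.44%), no gene of the uptake or regulator lists was called lower.

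Markers of cell types moved with diet beside these genes, in a diet fit where 7.11% of all genes were lower and 8.79% higher. Of 22 proximal tubule markers, 15 fell and 0 rose, with a median diet ratio of -0.50 in HSLC, where 22 of 22 were below 0, and -0.25 in NSLC, where 17 of 22 were. The calls and the NSLC direction depended on the scaling. Without normalization 0 of the 22 passed and their NSLC median was 0.21, with median scaling 2 passed and it was 0.16, and on the series matrix as deposited 2 passed and it was 0.05, while their HSLC median was -0.42, -0.41 and -0.40 in that order. Their summed level was 40868 on high and 56031 on low sodium in HSLC, and 48934 on high and 58992 on low sodium in NSLC. The fatty acid and peroxisome members had overall medians of -0.33 in HSLC and -0.19 in NSLC. Fibroblast and matrix markers went the other way, with 6 of 7 raised and a summed level of 17306 on high and 7935 on low sodium in HSLC, and 16396 on high and 6676 on low sodium in NSLC. Tubular injury markers summed to 12100 on high and 6252 on low sodium in HSLC, and 10119 on high and 5896 on low sodium in NSLC, with 8 of 11 raised and 1 lowered, and 8 of 9 macrophage markers rose. Thick limb markers had 3 of 6 raised, and distal and collecting duct markers 6 of 11 lowered and 1 raised. Of markers less typical of kidney tubules, 11 of 12 skeletal muscle, 4 of 7 erythrocyte, 2 of 7 adipocyte and 1 of 4 hepatocyte genes fell. Without normalization those counts were 9, 0, 1 and 0 in the same order, and 1 of the 11 distal and collecting duct markers was lowered. The part of these cell types in the members' values was not tested.

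**Figure D5:**
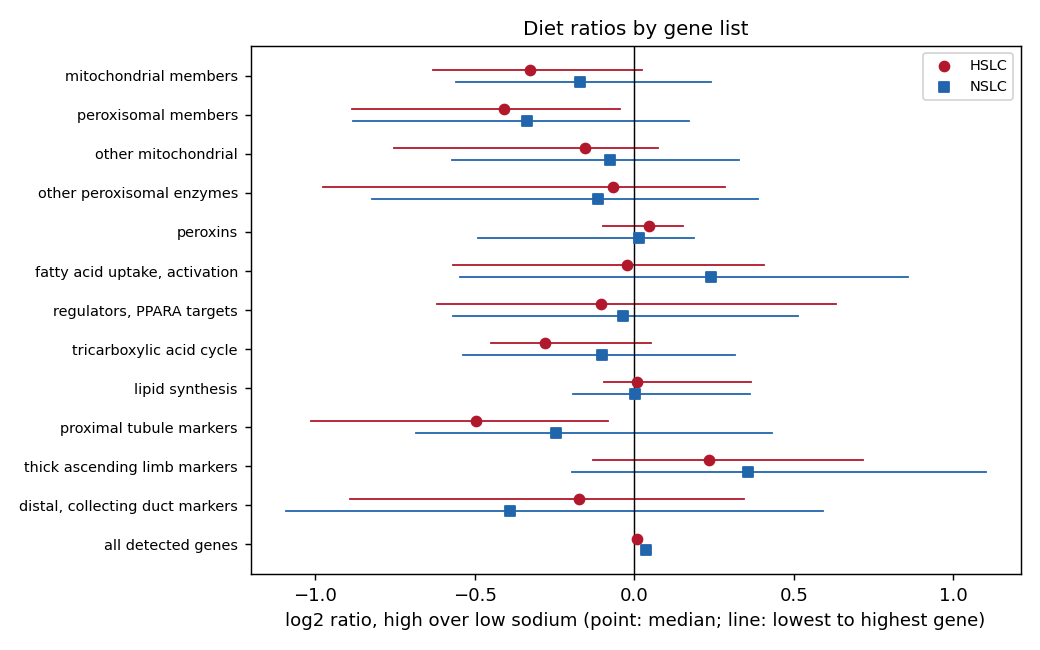
Median log2 ratio of high over low sodium for the mitochondrial and peroxisomal members, the other metabolic lists, 3 lists of tubule segment markers and all detected genes (rows), with 1 point for HSLC and 1 for NSLC and a line over the lowest to highest gene of each list. Proximal tubule markers lie at -0.50 in HSLC and -0.25 in NSLC, and peroxins at 0.05 and 0.01.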

How the data were processed

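Each deposited array file gives linear intensity values of 48702 probes, exported by the authors from BeadStudio (no version given), per the submitters' processing notes. Any correction, scaling or pooling the authors applied is not stated in the sources used here. RNA was extracted with Trizol, cleaned on RNeasy columns and labelled with Illumina TotalPrep, per the labels' protocols. The deposited series matrix, also intensity, served as an alternative.

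From these files, 1 probe listed at 0 was left out, the normexp correction with an offset of 50 was applied, the 4 arrays were quantile-normalized and log2 was taken (limma 3.58.1, R 4.3.3). A probe was detected where its deposited intensity exceeded the array's median (50th percentile). Of the probes, 23687 had 1 gene symbol in the platform annotation, 35 had several and 24979 none, and each gene was represented by its brightest probe on average. The limma fit had 1 residual and 13.0 prior degrees of freedom, and its test is two-sided. It was tested on simulated data with known changes, the same noise for every gene and no shift between arrays. That simulation cannot show how far the calls depend on the scaling or on differences between animals.

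The members, the 21 gene lists, the marker lists included, and the 1.5-fold rule were chosen with earlier results of these data known. All members are accounted for, with per-array levels for those past the diet fit or with the largest diet ratios. From each other list up to 4 genes with the largest mean diet ratio are named, here those that bear on the members. Alternatives to quantile normalization were none, median scaling or cyclic loess, and the others were the series matrix (as deposited, and corrected and quantile-normalized), an offset of 16, no background correction, no detection filter, detection above the 75th percentile, the mean over a gene's probes, muscle probes left out, a trended prior, 2-fold, and NSLC on low sodium as baseline. The number of arrays limits the precision, and no spread between animals can be had. No sequence is shown, since none was used here.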

Additional observations from a re-analysis of the deposited data

Results flagged for a closer look

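A diet ratio on one side of 0 in HSLC and on the other in NSLC was found for 5 members, and with 1 array per group the difference was not tested for any of them. DECR1 had -0.40 in HSLC and 0.24 in NSLC, a difference of -0.64. ABCD3 had -0.10 in HSLC and 0.17 in NSLC, a difference of -0.27. ACADVL had -0.16 in HSLC and 0.03 in NSLC, a difference of -0.19. PPARGC1A had 0.06 in HSLC and -0.10 in NSLC, a difference of 0.17. CPT1A had 0.02 in HSLC and -0.06 in NSLC, a difference of 0.0877. Over 6 scalings the difference stayed below 0 for DECR1, ABCD3 and ACADVL. It turned for PPARGC1A, with a range of -0.27 to 0.17 and 3 of 6 below 0, and for CPT1A, with a range of -0.0998 to 0.25 and 2 of 6 below 0. Of these, only the DECR1 difference was beyond 1.5-fold. Those of ACADVL, PPARGC1A and CPT1A were about as large as or smaller than the SD of 0.18 per probe for this quantity. The spread of the difference between 2 probes of a gene is wider than that SD.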

How the results depend on the processing

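Scaling was the choice that mattered most. Without normalization and with median scaling, the members' median diet ratio in NSLC was 0.18 and 0.13, with 5 and 6 members below 0. The count 1.5-fold lower in NSLC was 0 under both, under the series matrix as deposited and at 2-fold, and 2 with an offset of 16. In HSLC it was 2 under no normalization, median scaling, the series matrix as deposited and relative to the unnormalized median of all genes, 10 with NSLC on low sodium as baseline and 0 at 2-fold. For HSLC over NSLC on high sodium the median was -0.44 without normalization, -0.36 with median scaling and -0.36 on the series matrix as deposited, and the count 1.5-fold lower was 9 without normalization and 2 at 2-fold. On low sodium that count was 0 at 2-fold. The median difference of diet ratios was -0.41 without normalization and -0.34 with median scaling, with 28 members below 0 under both (82.7% and 73.5% of all genes). It was 23 members on the series matrix as deposited (37.9% of all genes) and relative to the median of all genes (50%). Differences 1.5-fold lower numbered 8 without normalization, 5 with median scaling, 4 on the series matrix as deposited, 2 on the normalized series matrix, 4 relative to the median of all genes, 2 relative to the brighter genes and 0 at 2-fold. Apart from NSLC on low sodium as baseline, the share of all genes past these size rules is not given for the alternatives. The 1.5-fold and 2-fold counts therefore describe the members only and show no change particular to them. Members that fell in the diet fit numbered 0 without normalization, 1 with median scaling and 1 on the series matrix as deposited, with the shares of all genes given above. Without a detection filter 9 of 33 fell, where 281 of 18774 genes did. In the phenotype fit 3 were lower with cyclic loess (123 of 11908 genes) and 0 without a detection filter (1 of 18774 genes). The diet effect turned positive for AMACR, at 0.0366 without normalization and 0.0181 with median scaling, and for EHHADH, at 0.0072 without normalization. Setting ratios against the unnormalized median of all genes or of the brighter genes was chosen after seeing the data. The cause of these shifts was not tested. The HSLC diet median stayed below 0 under each scaling. No paired analysis was possible because each group is 1 array and the replicate numbers hold only replicate 1, and no array could be left out of a group.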

Other observations

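Genes of lipid synthesis, which runs opposite to oxidation, were for the most part not past the diet test. In limma 1 of 8 rose on high sodium and 0 fell, where 8.79% of all genes were higher and 7.11% lower. The count that rose was 2 without normalization (1059 of 11908 genes) and 3 with median scaling (1763 of 11908). It was 0 on the normalized series matrix (826 of 11832). ELOVL6, which elongates saturated and monounsaturated chains, rose by 0.34 on the log2 scale (adjusted p = 0.0178) and had diet ratios of 0.33 in HSLC and 0.35 in NSLC. ACLY, which makes cytosolic acetyl-CoA, had ratios of 0.37 in HSLC and 0.17 in NSLC. Of 7 housekeeping genes 1 rose and 1 fell.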
